A study of Schizosaccharomyces pombe with 4 samples.

Results

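The fission yeast *Schizosaccharomyces pombe* has 9 genes for cell wall glucan synthases, and all 9 were followed here among the 5129 protein-coding genes of the total RNA-seq table. They were chosen by name and identifier, without use of their levels: *bgs1* (SPBC19G7.05c), *bgs2* (SPAC24C9.07c), *bgs3* (SPAC19B12.03) and *bgs4* (SPCC1840.02c) for β-glucan synthases, and *mok1* (SPCC1281.01, also named *ags1*), *mok11* (SPAC1527.01), *mok12* (SPBC32H8.13c), *mok13* (SPBC16D10.05) and *mok14* (SPCC63.04) for α-glucan synthases. All 9 had enough reads to be tested.

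The series holds 4 libraries of total RNA: biological replicates 1 and 2 of YAM2394 (WT), and the same of YAM2397 (*exo2*Δ::kanMX4). Exo2 is the cytoplasmic 5′–3′ exoribonuclease of fission yeast, the counterpart of Xrn1 in budding yeast. Both strains are haploid, of the single mating type h+, and carry the *ade6-M210*, *ura4-D18* and *leu1-32* mutations, and cells were collected in mid-log phase in rich medium at 32°C. A homogeneous h+ culture does not mate or sporulate, so the sporulation genes were read in growing cells only, and *exo2*Δ is represented by a single strain.

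The fission yeast wall is built from β-glucan and α-glucan with galactomannan outside, and holds little or no chitin during growth. Each Bgs or Mok protein is a large multipass membrane enzyme that extends glucan chains and extrudes them through the plasma membrane, and the GTPases Rho1 and Rho2 with protein kinase C regulate this activity. Bgs1 makes the linear β-glucan of the primary septum, Bgs4 makes most of the branched β-glucan and Bgs3 is also essential in growing cells, while Mok1 makes the α-glucan of the growing wall. Bgs2, Mok12, Mok13 and Mok14 are known from the spore wall, which is laid down inside the ascus after meiosis. No such role is assigned here to Mok11.

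The bases around the annotated mRNA start are given for the 4 sporulation genes and *mok11*. An asXUT, a noncoding RNA antisense to the gene, crosses the annotated start of *bgs2* and *mok13*, and the start of *mok11* is annotated far upstream in RefSeq. For *bgs2* and *mok14* the RefSeq leader is 0 nt, so the annotated start is the start codon and does not show where transcription begins. The *mok13* leader is 135 nt in RefSeq and 0 nt in the annotation on ASM294v2. Each run has 100 bases before and 50 bases from the start onward, 5′ to 3′ on the strand of the gene, from the RefSeq annotation of assembly ASM294v3. The runs lie at chrI:3059233-3059382 (minus strand, *bgs2*), chrII:1486051-1486200 (minus, *mok12*), chrII:3597336-3597485 (plus, *mok13*), chrIII:839862-840011 (plus, *mok14*) and chrI:4374263-4374412 (plus, *mok11*). Capitals mark GTAAACA or its reverse complement TGTTTAC, the core bound by the meiotic forkhead factor Mei4.
bgs2: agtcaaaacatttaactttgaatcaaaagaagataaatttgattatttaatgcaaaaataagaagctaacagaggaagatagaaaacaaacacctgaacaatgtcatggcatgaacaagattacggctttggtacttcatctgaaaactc
mok12: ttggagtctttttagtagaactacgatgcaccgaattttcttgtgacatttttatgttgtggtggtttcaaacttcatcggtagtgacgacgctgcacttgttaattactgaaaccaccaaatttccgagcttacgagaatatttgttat
mok13: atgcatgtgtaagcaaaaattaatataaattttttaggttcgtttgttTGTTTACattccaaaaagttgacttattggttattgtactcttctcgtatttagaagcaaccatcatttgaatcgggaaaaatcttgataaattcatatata
mok14: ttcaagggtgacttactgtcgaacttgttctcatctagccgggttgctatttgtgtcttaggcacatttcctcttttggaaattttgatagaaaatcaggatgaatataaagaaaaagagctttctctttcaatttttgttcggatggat
mok11: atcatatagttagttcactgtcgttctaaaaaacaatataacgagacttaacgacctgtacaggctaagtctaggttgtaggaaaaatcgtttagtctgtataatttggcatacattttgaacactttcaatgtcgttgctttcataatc

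Among these 5 runs the capitals occur in that of *mok13*, where the match begins 52 bases before the RefSeq start. In the longer window from 250 bases before the start to 50 after it, the motif was present in 3 of the 9 genes, at *bgs3*, *mok1* and *mok13*, and in 16.4% of the 5155 RefSeq windows on either strand. In the same windows TTCTTTG, the core for the mating factor Ste11 (or CAAAGAA on the other strand), was present at *bgs1* and in 9.97% of windows. TGACGT, the site of the stress factor Atf1 (ACGTCA on the other strand), was present at 0 of the 9 genes and in 5.94% of windows. TATAAA, the TATA element, was searched on both strands too, and was present at *bgs1*, *bgs4*, *mok13* and *mok14* and in 48.1% of windows. None of these motifs contains another, and a match describes the sequence only.

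The members are long genes with long proteins. In the table (build ASM294v2) *mok14* spans 4204 nt and *mok1* 8668 nt, and each member is longer than at least 93.5% of the genes. Translated from RefSeq coding sequences, the proteins run from 1369 residues for Mok14 to 2410 for Mok1. The β-glucan synthases share 53.3% to 61.8% identical residues pairwise, with *bgs2* and *bgs4* the closest pair, and the α-glucan synthases share 40.6% to 52.3%, with *mok1* and *mok11* the closest. No stretch of 50 bases, the read length, in any member gene occurs elsewhere in the genome, so the paralogs can be told apart by their reads.

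The libraries held 46964618 to 51019820 reads on annotated features, and the 9 members took 74402 to 121208 of them. Levels are densities in tag/nt, the reads per nt of a gene after scaling by the authors on sn(o)RNAs, and differences are log2 ratios of *exo2*Δ over WT from limma with Benjamini-Hochberg adjustment over 8826 features. A deleted *exo2* gene would have few or no reads, and this was not seen. WT had 0.488 and 0.458 tag/nt over *exo2*, from 2485 and 2181 reads. The libraries labelled *exo2*Δ had 0.663 and 0.636, from 2426 and 2382 reads. The log2 ratio was 0.46 ± 0.085 (SE, n = 2 per genotype, adjusted p = 0.00167), and relative to the median mRNA *exo2* was at −0.63. The paper states that the strains were verified by PCR and northern blot, and the source of these reads was not tested. Every direction below is therefore between libraries as labelled. The median mRNA was 1.08 higher on the log2 scale in the libraries labelled *exo2*Δ, with quartiles of 0.64 and 1.48, and each change is therefore also given relative to this median.

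In WT the genes for growth stood well above those for sporulation. *bgs4* had the highest mean density and *mok1* followed, and the ranges of these 2 genes over the replicates overlapped. Below them came *bgs1*, *bgs3*, *mok14*, *mok11*, *mok13*, *mok12* and *bgs2*, each apart from the next over both replicates. In WT *bgs4* lay above 87.6% of mRNAs and *bgs2* above 11.97%. *mok14* was the highest of the sporulation genes, above 54.8% of mRNAs, where *mok13* and *mok12* lay above 20.4% and 18.02%. In the libraries labelled *exo2*Δ the order was the same, but *bgs4* and *mok1* no longer overlapped, whereas *mok11* and *mok13* did.

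**Figure D1:**
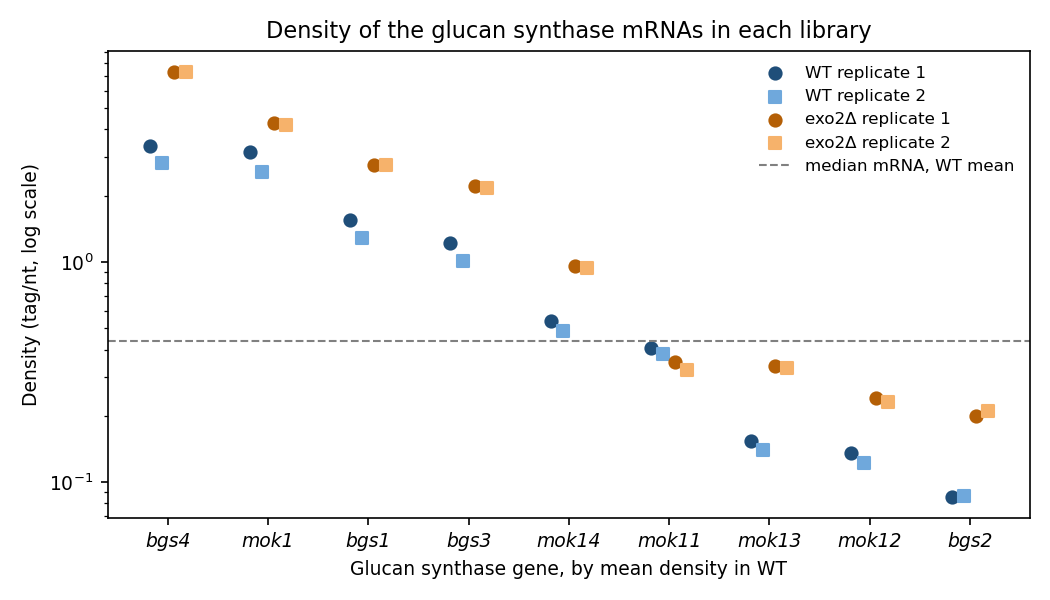
Density of each glucan synthase mRNA (tag/nt, log axis) in the 4 libraries, with genes ordered by mean density in WT and the median mRNA of WT as a dashed line. Both points labelled *exo2*Δ lie above both WT points for 8 genes on this sn(o)RNA scale, and below both for *mok11*. Relative to the median mRNA no gene rose.

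On the sn(o)RNA scale 8 of the 9 genes rose in the libraries labelled *exo2*Δ, 0 fell and *mok11* was not called, while relative to the median mRNA 0 rose and *mok1* and *mok11* fell. Of all mRNAs tested, 88.1% rose on the sn(o)RNA scale and 4.31% fell. The rise exceeded 2-fold for *bgs2*, *bgs4* and *mok13*, 3 of 9, beside 54.8% of mRNAs. *bgs1* (1.96-fold) and *bgs3* (1.97-fold) lay just under that limit. Without WT replicate 1, which leaves 1 WT library, their log2 ratios were 1.11 and 1.12, above it. The median log2 ratio of the members was 0.97 (0.83 between the replicates numbered 1 and 1.10 between those numbered 2), beside 1.08 over all 5079 mRNAs tested and 0.85 over the 334 that are at least as long as *mok14*. With the median mRNA as reference the falls of 2 of 9 stand beside 32.8% of all mRNAs, and the 0 rises beside 30.3%. Of the 334 long mRNAs, 46 rose and 150 fell relative to the median mRNA, and 129 were above 2-fold on the sn(o)RNA scale. With scaling by the median of ratios over all features, 0 members rose and *mok1*, *mok11* and *mok14* fell. At an unadjusted p under 0.05 in limma the fall on the sn(o)RNA scale and the rise relative to the median mRNA also count 0 members each, and limma with voom weights on the recovered reads called 1 member lower on the sn(o)RNA scale.

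**Figure D2:**
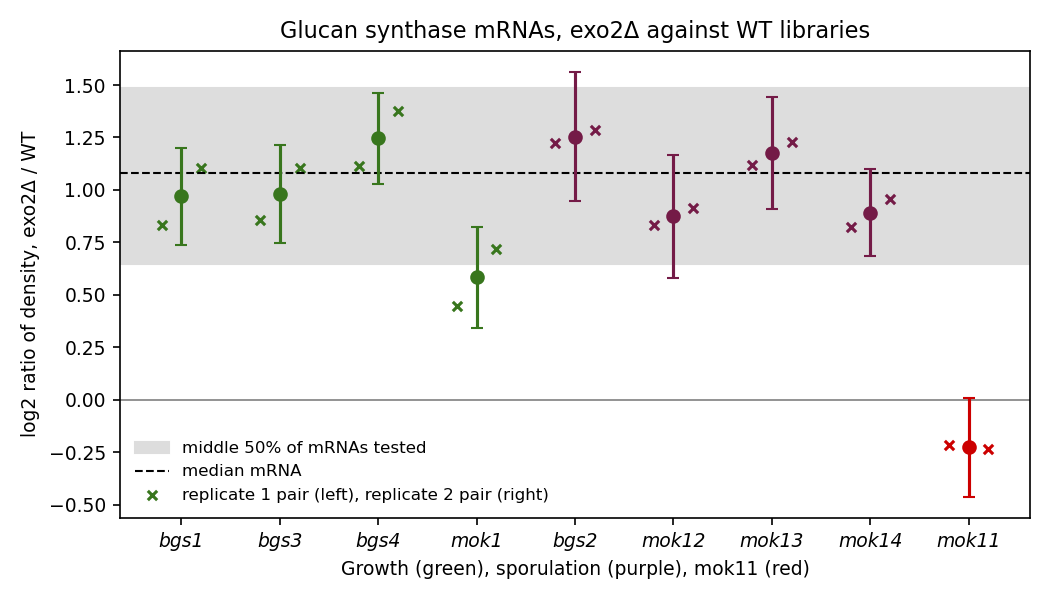
log2 ratio of density, *exo2*Δ over WT, with 95% confidence intervals from limma for the 9 genes (circles) and the ratio in each same-numbered pair of replicates (crosses), over the median mRNA (dashed) and the middle 50% of mRNAs (grey). On the sn(o)RNA scale 8 genes are above 0, and relative to the dashed line *mok1* at 0.58 and *mok11* at −0.23 are the 2 that lie lower by the test.

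Among the growth genes, *bgs4*, for the main branched β-glucan, had the largest log2 ratio. It was at 3.37 and 2.81 tag/nt in both WT replicates and at 7.29 and 7.30 in the libraries labelled *exo2*Δ. Both *exo2*Δ-labelled values exceed both WT values, with a log2 ratio of 1.25 ± 0.091 (adjusted p = 1.61e-05). *bgs1*, for the primary septum, had 1.55 and 1.28 tag/nt in WT and 2.76 and 2.76 in the *exo2*Δ-labelled pair, a log2 ratio of 0.97 ± 0.097 (adjusted p = 6.86e-05). *bgs3* had 1.22 and 1.01 in WT and 2.21 and 2.17 in the *exo2*Δ-labelled pair, a log2 ratio of 0.98 ± 0.098 (adjusted p = 6.83e-05). These 2 genes kept their proportion, with a *bgs1* to *bgs3* ratio of density of 1.27 and 1.27 in WT and 1.25 and 1.27 in the *exo2*Δ-labelled pair. Relative to the median mRNA, *bgs1*, *bgs3* and *bgs4* were at −0.11, −0.10 and 0.16, and none of these passed the test.

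*mok1*, the α-glucan synthase of growing cells, had a smaller ratio than *bgs4*. It was at 3.15 and 2.55 tag/nt in both WT replicates and at 4.29 and 4.21 in the libraries labelled *exo2*Δ, which do not overlap. The log2 ratio was 0.58 ± 0.10 (adjusted p = 0.00114), a value with 22.4% of mRNAs below it. Relative to the median mRNA *mok1* fell by 0.50 (adjusted p = 0.00496), and with scaling on all reads it was at 0.09 (adjusted p = 0.481). The ratio of *bgs4* to *mok1* density, which does not depend on the scaling, went from 1.07 and 1.10 in WT to 1.70 and 1.73. Summed over the genes, the β-glucan synthases took 58.7% and 58.5% of the members' density in WT and 66.9% and 67.3% in the *exo2*Δ-labelled pair. The α-glucan synthases took the rest, 41.3% and 41.5% in WT and 33.1% and 32.7% in the *exo2*Δ-labelled pair, of which *mok1* was 69.4% to 71.8% in every library. With 2 libraries per genotype, an exact two-sided permutation test of such a share cannot go below p = 0.333.

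The WT replicates were less alike for the growth genes than the *exo2*Δ-labelled ones were. *bgs1*, *bgs3*, *bgs4* and *mok1* were higher in WT replicate 1 than in WT replicate 2, by 0.28, 0.27, 0.26 and 0.30 on the log2 scale. The median over all mRNAs was −0.02 for the same pair, and 0.08 over the mRNAs at least as long as *mok14*. Other wall genes also differed: among 16 genes for enzymes that remodel or cut glucan the values ran from −0.04 to 0.30, with a median of 0.11. The 4 sporulation genes differed by 0.15 or less between these libraries. The part of this difference in the ratios was not tested beyond leaving out each library, under which the log2 ratio of *bgs4* stayed between 1.11 and 1.38 and that of *mok1* between 0.43 and 0.73.

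The 4 sporulation genes were detected in growing cells of both genotypes and rose in the libraries labelled *exo2*Δ on the sn(o)RNA scale, while relative to the median mRNA none passed the test. *bgs2*, for spore wall β-glucan, had 0.0858 and 0.0860 tag/nt in WT and 0.201 and 0.210 in the *exo2*Δ-labelled pair, from 579 to 1112 reads per library. Its log2 ratio was 1.25 ± 0.13 (adjusted p = 7.72e-05), close to that of *bgs4*, the paralog nearest in sequence. *mok13* had 0.154 and 0.140 in WT and 0.335 and 0.329 in the *exo2*Δ-labelled pair, a log2 ratio of 1.17 ± 0.11 (adjusted p = 5.34e-05). It is the member with 2 annotated coding exons, and their densities rose alike, by log2 ratios of 1.28 over the short first exon (13 to 30 reads per library) and 1.17 over the second.

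*mok12* had 0.135 and 0.122 tag/nt in WT and 0.240 and 0.230 in the *exo2*Δ-labelled pair, a log2 ratio of 0.87 ± 0.12 (adjusted p = 3.91e-04). *mok14* had 0.540 and 0.485 in WT and 0.957 and 0.943 in the *exo2*Δ-labelled pair, a log2 ratio of 0.89 ± 0.086 (adjusted p = 5.75e-05). For all 4 genes both *exo2*Δ-labelled values lay above both WT values. Relative to the median mRNA, *bgs2*, *mok12*, *mok13* and *mok14* were at 0.17, −0.21, 0.09 and −0.19. The sporulation genes made 8.62% and 9.40% of the members' summed density in WT and 9.30% and 9.27% in the *exo2*Δ-labelled pair, ranges that overlap, and the 4 growth genes 87.5% and 86.3% and then 88.8% and 89.0%. The 51 nt at the 5′ end of *mok14* overlap *mib1* (SPCC63.03) on the same strand, which had a log2 ratio of 0.80 (adjusted p = 1.65e-04), and reads in the overlap cannot be assigned to 1 of the 2 genes. *mok12* shares 23 nt at its start with *alg2* (SPBC11B10.01) on the other strand.

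Markers of meiosis and sporulation did not all go one way. All 11 tested, of 12 listed, lay below the median mRNA in WT, and 0 of the 11 were at 0 reads in any library. Their summed density was 0.969 and 0.905 tag/nt in WT and 2.35 and 2.26 in the libraries labelled *exo2*Δ. Most of each sum came from 3 genes, at 0.332 (*spo3*), 0.303 and 0.219 tag/nt in WT replicate 1, so it says little about the others. The 7 septation markers of dividing cells went from 2.43 and 2.54 to 4.49 and 4.53. On the sn(o)RNA scale 6 of the 11 meiotic markers rose, 2 fell and 3 were not called, beside the 88.1% of mRNAs that rose and 4.31% that fell. The 3 not called had 2 to 27 reads per library and positive log2 ratios of 0.91 to 1.45. Of the 2 that fell, 1 had 13 to 49 reads per library and the other, *rec8*, 30 to 76. With the median mRNA as reference 4 markers rose and 2 fell. *meu14*, for the forespore membrane leading edge, had 0.0123 and 0.0178 in WT and 0.165 and 0.142 in the *exo2*Δ-labelled pair (log2 ratio 3.36), and *mei4*, for the meiotic forkhead factor, had 0.0344 and 0.0321 and then 0.197 and 0.184 (2.51). *spo3*, also for the forespore membrane, was at 1.33, and *rec8*, for meiotic cohesin, fell by 0.87 (adjusted p = 0.0250). The part of these markers in the values of the sporulation synthases was not tested.

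*mok11* was the member with a negative log2 ratio on the sn(o)RNA scale. It was at 0.408 and 0.380 tag/nt in both WT replicates and at 0.351 and 0.323 in the libraries labelled *exo2*Δ, from 2107 to 3608 reads per library. Both *exo2*Δ-labelled values lie below both WT values, and the log2 ratio of −0.23 ± 0.099 (95% interval −0.46 to 0.01) did not pass the test (adjusted p = 0.0650). Only 4.10% of mRNAs had a lower ratio. Relative to the median mRNA it fell by 1.31 (adjusted p = 5.99e-05), and with scaling on all reads it fell by 0.72 (adjusted p = 5.93e-04). With the replicate number as a block the same log2 ratio was called lower (adjusted p = 0.0424). Without WT replicate 2, which leaves 1 WT library, the log2 ratio was −0.28.

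The change of *mok11* against *mok14* and *mok12* does not depend on the scaling. The ratio of *mok14* to *mok11* density was 1.33 and 1.28 in WT and 2.73 and 2.92 in the *exo2*Δ-labelled pair, and that of *mok11* to *mok12* went from 3.02 and 3.12 to 1.46 and 1.41. Its share of the members' summed density was 3.84% and 4.29% in WT and 1.88% and 1.75% in the *exo2*Δ-labelled pair. The coding exon is 7194 of the 7475 nt of the gene and holds nearly the same reads, so its log2 ratio of −0.23 is not a separate measurement.

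The start of *mok11* is annotated differently in the table and in RefSeq. The table gives the gene a 5′ leader of 198 nt, preceded on the same strand by the annotated ncRNA SPNCRNA.982, which overlaps its first 4 nt. RefSeq starts the *mok11* mRNA upstream, with a leader of 1136 nt that covers SPNCRNA.982, and the *mok11* sequence printed above is from that start. SPNCRNA.982 had 0.437 and 0.441 tag/nt in WT and 0.533 and 0.573 in the libraries labelled *exo2*Δ. It rose by 0.33 ± 0.087 (adjusted p = 0.00873) on the sn(o)RNA scale and was at −0.75 relative to the median mRNA, so it and *mok11* both lie below the ratio of the median mRNA. SPNCRNA.982 in turn lies over 599 nt of *aah2* (SPAC23D3.14c) on the other strand, an α-amylase homolog that is the divergent neighbour of *mok11*. *aah2* had 0.107 and 0.0985 tag/nt in WT and 0.320 and 0.342 in the *exo2*Δ-labelled pair, a log2 ratio of 1.69 ± 0.12.

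XUTs are the long noncoding transcripts that the authors defined by their rise of over 2-fold in these same *exo2*Δ libraries, so their ratios are given as a description and without a test. At least 50 nt of an XUT on the other strand (an asXUT) was found for 2 of the 9 members, or 22.2%, beside 1086 of 5129 genes, or 21.2%. Both are sporulation genes, *bgs2* and *mok13*, and in both an asXUT crosses the annotated start. In this annotation both have a leader of 0 nt, so the start crossed is the start codon. The 2 genes remain the same at a minimum overlap of 1 nt and of 200 nt.

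Over *bgs2*, XUT1462 (chromosome I, 3057951 to 3059474, plus strand, ASM294v2) covers 1332 nt from the start into the gene, 21.9% of its length. It was at 0.338 and 0.351 tag/nt in both WT replicates and at 1.71 and 1.82 in the libraries labelled *exo2*Δ, a log2 ratio of 2.35. Taken over the whole length of each transcript, the antisense RNA was more abundant per nt than the mRNA in every library. The antisense to sense ratio was 3.94 and 4.09 in WT and 8.51 and 8.66 in the *exo2*Δ-labelled pair. SPNCRNA.880 is an annotated ncRNA over nearly the same bases, shares these reads and has the same ratio of 2.35. At the 3′ end of *bgs2*, SPNCRNA.879 overlaps by 24 nt, under the minimum for an antisense pair.

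*mok13* is faced by 2 asXUTs of lower density. XUT0390 (chromosome II, 3597348 to 3597940, minus strand) covers the first 370 nt of the gene and had 0.0427 and 0.0411 tag/nt in WT and 0.208 and 0.178 in the *exo2*Δ-labelled pair, a log2 ratio of 2.19. SPNCRNA.1621 covers nearly the same bases and has a log2 ratio of 2.19. XUT0391 (3599904 to 3601657, minus strand) lies inside the gene over 1754 nt, with 24 to 31 reads in the WT libraries and 118 to 140 in the *exo2*Δ-labelled pair, a log2 ratio of 2.63. With the density of the whole *mok13* gene as the sense value, the antisense to sense ratio stayed below 1 for both, in every library. The short first coding exon, which lies inside XUT0390, had a lower sense density than the whole gene. It was at 0.0426 and 0.0328 tag/nt in WT and 0.0855 and 0.0963 in the *exo2*Δ-labelled pair, from 13 to 30 reads. XUT0390 was about equal to this exon in WT replicate 1 and above it in the other libraries. The annotated ncRNAs SPNCRNA.880 and SPNCRNA.1621 were both above 2-fold, as were 50% of the 1384 annotated ncRNAs tested.

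**Figure D3:**
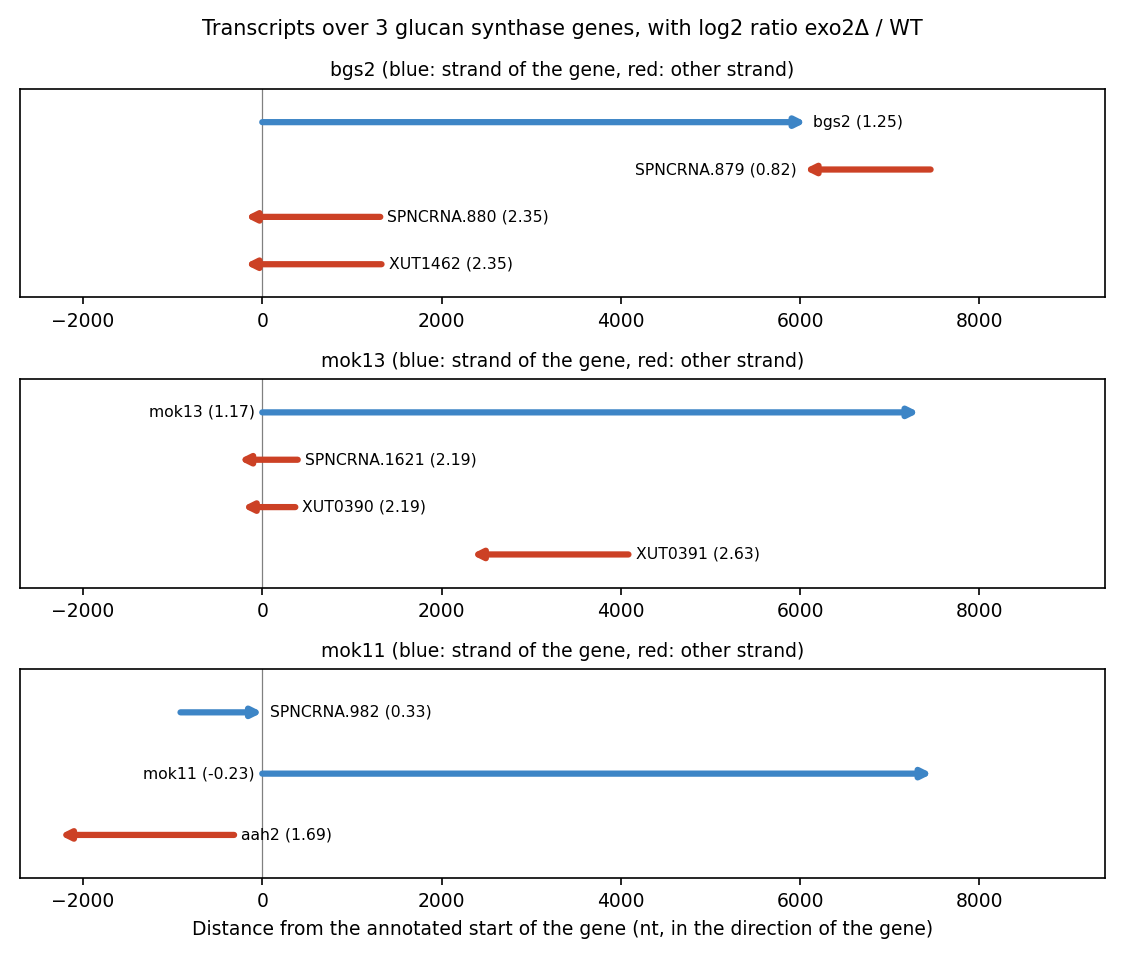
Annotated transcripts over *bgs2*, *mok13* and *mok11*, drawn to scale against the distance in nt from the start of the gene in the table, with the log2 ratio of *exo2*Δ over WT in brackets. Antisense arrows (red) cross the start of *bgs2* and *mok13*, with ratios of 2.35 and 2.19, and *mok11* has SPNCRNA.982 on its own strand (blue, 0.33) and *aah2* on the other (1.69).

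2 growth genes have an antisense partner that is not an XUT. SPNCRNA.1034 (chromosome I, 4889798 to 4890204, minus strand) overlaps the 3′ end of *bgs3* by 118 nt. It had 0.122 and 0.120 tag/nt in WT and 0.0317 and 0.0479 in the libraries labelled *exo2*Δ, from 59, 54, 11 and 17 reads. This was a fall by 1.63 on the log2 scale (SE 0.23, adjusted p = 4.32e-04), where 5.27% of annotated ncRNAs fell, and the *bgs3* mRNA rose on the same sn(o)RNA scale. The convergent protein-coding gene SPBC19G7.04 overlaps the 3′ end of *bgs1* by 61 nt, from 85 to 236 reads per library, and rose by 1.54 (adjusted p = 4.94e-04), a call that was lost relative to the median mRNA. No feature overlaps *bgs4* or *mok1*.

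**Figure D4:**
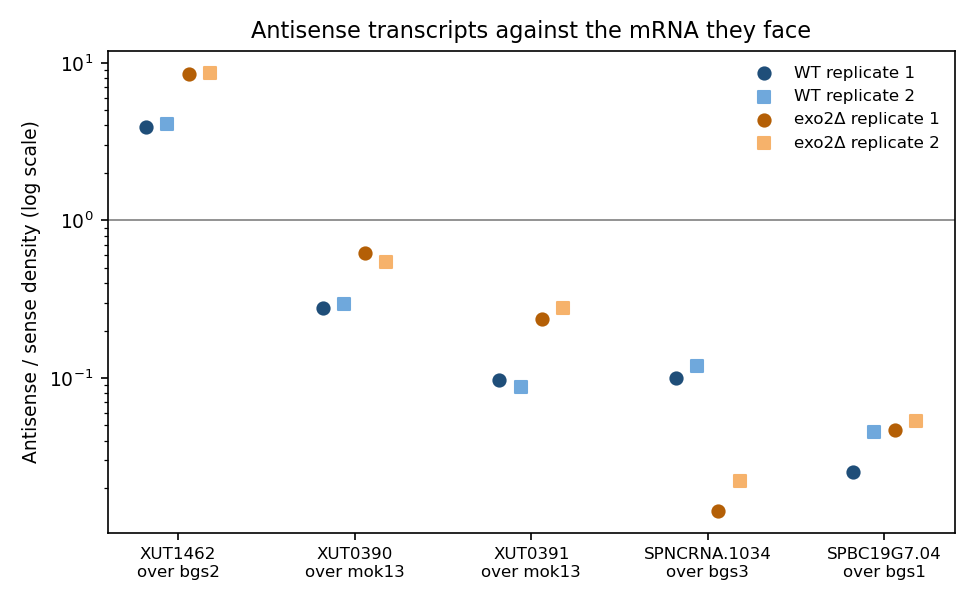
Density of 5 antisense transcripts divided by that of the whole glucan synthase mRNA they face, not of the overlapped part alone (log axis), in the 4 libraries. XUT1462 lies above 1 in all 4 libraries, from 3.94 to 8.66, and the antisense of *mok13*, *bgs3* and *bgs1* below 1, and SPNCRNA.1034 over *bgs3* is the one that is lower in both *exo2*Δ libraries than in both WT libraries.

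Across the table, the 1078 tested mRNAs with an asXUT had a median log2 ratio of 1.13 and the 4001 without one 1.07. *bgs2* (1.25) and *mok13* (1.17) have one, and the 7 members without one ranged from −0.23 for *mok11* to 1.25 for *bgs4*.

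Genes that act with the synthases were taken from 7 lists. Of the 16 regulators of glucan synthesis tested, 15 rose, 0 fell and 1 was not called, beside 88.1% of mRNAs that rose, and 9 were above 2-fold, beside 54.8%. Their median log2 ratio was 1.07, close to the median mRNA. The largest rises were those of *sbg1*, for a small membrane protein that binds Bgs1, at 2.02, from 0.901 and 0.840 tag/nt to 3.44 and 3.65. *rho5*, for a Rho1-like GTPase, was at 1.83 and *rga5*, for a GTPase-activating protein of Rho1, at 1.65. The *bgs1* mRNA itself was at 0.97. With the median mRNA as reference 4 regulators rose and 3 fell. In the cell integrity MAP kinase pathway all 7 genes rose on the sn(o)RNA scale, where 88.1% of mRNAs did, with a median of 1.20, and relative to the median mRNA 3 rose and 0 fell. Its largest rises were *rnc1*, for an RNA-binding protein, at 2.04, *pmp1*, for a MAP kinase phosphatase, at 1.69 and *mbx1*, for a MADS-box factor, at 1.57. *mbx1* is also the divergent neighbour of *bgs1*, with 127 nt between both genes.

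Enzymes that remodel or cut glucan had a median of 0.80 over 16 tested, with 14 that rose, 1 that fell and 1 not called, beside the same 88.1% and 4.31% of mRNAs. With the median mRNA as reference 2 of them rose and 10 fell. *agn1*, for the α-glucanase that separates daughter cells, was at 1.45 and *aah1*, an α-amylase homolog, at 1.27, while *gas2*, for a glucan elongation enzyme, fell by 0.16 (adjusted p = 0.0268). Among 7 genes of chitin and the spore wall 6 rose and 1 fell, again beside 88.1% and 4.31% of mRNAs, and with the median mRNA as reference 3 rose and 2 fell. *isp3*, for a protein of the spore surface, was at 1.73, *cfh2*, of the chitin synthase regulator family, at 1.54 and *chs1* at 1.38, and *chs2* fell by 0.32 (adjusted p = 0.0308).

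Most genes on the list for nucleotide sugar supply fell, but only *fyu1* among them is for an enzyme that makes a nucleotide sugar. Of 4 genes tested 1 rose and 3 fell, beside the 4.31% of all mRNAs that fell, with a median of −0.47, and all 4 fell relative to the median mRNA. *hxk2*, a hexokinase, had 14.97 and 13.4 tag/nt in WT and 7.30 and 7.63 in the libraries labelled *exo2*Δ, and fell by 0.92. *pgi1*, for phosphoglucose isomerase, fell by 0.58 and *fyu1*, for UDP-glucose pyrophosphorylase, by 0.36, while *hxk1* rose by 0.29. These are abundant mRNAs, with a median WT density of 12.6 tag/nt where the synthases have 0.513. All 7 septation genes rose on the sn(o)RNA scale, as did 88.1% of mRNAs, with a median of 0.82, and 0 rose and 4 fell relative to the median mRNA. *spn1*, a septin gene, was at 1.25 and *myo2*, for the myosin of the contractile ring, at 0.84.

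**Figure D5:**
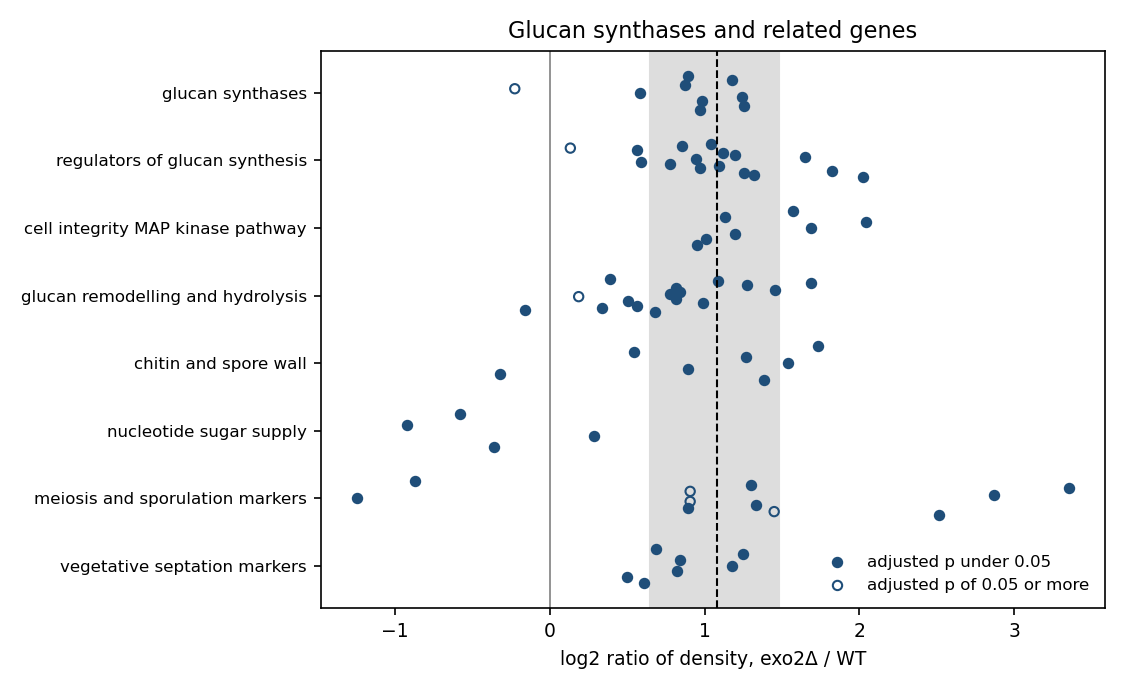
log2 ratio of *exo2*Δ over WT for the 9 glucan synthase genes and the genes of 7 related lists, filled where the adjusted p was under 0.05, with the median mRNA (dashed, 1.08) and the middle 50% of mRNAs (grey). On the sn(o)RNA scale most points lie right of 0, and *mok11* is the open point of the top row. On the list for nucleotide sugar supply 3 of the 4 genes lie left of 0.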

How the data were processed

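Stranded total RNA-seq of fission yeast was analysed for 2 WT and 2 *exo2*Δ libraries. The authors depleted rRNA, sequenced paired ends of 50 nt, mapped them with TopHat and kept uniquely mapped reads (build ASM294v2 per the labels). They deposited the signal of each feature as a density in tag/nt, normalized on sn(o)RNA levels, and columns with the sum of both replicates, which were not used. How reads were counted on features, and shared between overlapping ones, is not given in the sources used here. Density times length was a whole multiple (within 0.01) of 1 step per library for 100.0% of nonzero values, which gave the reads.

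limma 3.58.1 (R 4.3.3) was fitted to log2(density + 1.55e-04) with a mean trend, over 8826 of 9139 features with at least 10 reads in sum, with Benjamini-Hochberg adjustment over all of them. Ratios are on this log2 scale. Calls needed an adjusted p under 0.05, and a ratio above 2 where stated. The planned test allowed for counts, and limma was used as the table holds a density. Since 2 libraries per genotype cannot pass an exact permutation test, p-values rest on the model. It moderates the spread between the cultures for each gene with that of the other features. Without the mean trend the adjusted p in limma was 0.00371 for *bgs1* and 0.0189 for *mok1*.

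The members and the lists were chosen with earlier results of these data known. Named were all members, transcripts overlapping a member antisense (50 nt or more) or in sense (1 nt or more), overlapping neighbours, *exo2*, and from each list the 3 largest rises and falls with an adjusted p under 0.05 and a mean of at least 50 reads. A gene that this rule names is not reported here. SPNCRNA.879, and *mbx1* as neighbour, were added after their values were seen. Of 72 listed symbols 69 were matched. The RefSeq annotation of ASM294v3 gave names, starts and sequences, and all 10 coding exons of the members have the same coordinates in it. Alternatives covered scaling, pseudocount, filter, voom on the recovered reads, trend, features, a replicate block, leaving out each library and, added after seeing the data, coding exons only. The test was also run on counts simulated from the mean reads of these libraries.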

Additional observations from a re-analysis of the deposited data

How the results depend on the processing

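The direction of the members' change depended on the scaling. The number above 2-fold was 5 with the sum of sn(o)RNA reads, and 0 with all reads, with the median of ratios and relative to the median mRNA. Members higher were 0 with the median of ratios and 0 relative to the median mRNA. Members lower were 1 with all reads, 3 with the median of ratios and 2 relative to the median mRNA, and 1 with voom and with protein-coding genes only, in which *mok11* is called. The members' median log2 ratio was 0.48 with all reads, −0.24 with the median of ratios and −0.11 relative to the median mRNA. With the median of ratios the sign turned for *bgs1* (−0.24), *bgs3* (−0.22), *mok1* (−0.62), *mok12* (−0.33), *mok13* (−0.030) and *mok14* (−0.31), and relative to the median mRNA for *bgs1* (−0.11), *bgs3* (−0.10), *mok1* (−0.50), *mok12* (−0.21) and *mok14* (−0.19). These scalings shift every log2 ratio by 0.07 (sum of sn(o)RNA reads), −0.49, −1.20 and −1.08. Leaving out each library in turn, which leaves 1 library in a genotype, put the members' median log2 ratio between 0.83 and 1.11. The log2 ratio of *mok11* then stayed between −0.28 and −0.17. The number of members higher stayed at 8 under the other pseudocount, both filters, no trend and coding exons only.

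The replicate block gave 1 member lower, *mok11*, and changed no other call of a member. Deviations of same-numbered libraries correlated at 0.283 over 5447 features with at least 100 reads in each library, and with 2 pairs the labels do not say whether a number marks a shared batch.

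Depth was low for XUT0390, XUT0391, SPNCRNA.879, SPNCRNA.1034, SPNCRNA.1621 and the first exon of *mok13*, each with 11 to 140 reads per library. It was also low for *meu14* in WT and for *rec8* in the libraries labelled *exo2*Δ. The 3 meiotic markers not called, and 1 of the 2 that fell, had 2 to 49 reads per library.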
